A study of Mus musculus with 24 samples.

Results

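Fatty acid uptake and binding proteins are described here by 10 genes, Cd36, Slc27a1, Slc27a2, Fabp1, Fabp2, Fabp3, Fabp4, Fabp5, Lpl and Vldlr, out of 35275 genes counted in bulk liver RNA. The genes were chosen by name for their role, with earlier results of these data known. RNA-seq was made from livers of chow-fed male C57BL/6 mice, 8 to 10 weeks old, which had all fasted for 24 h. The 24 libraries fell into 6 groups of 4. Control livers are labelled wild type, and the methods of the study describe controls as Tsc1 f/f and Cpt2 f/f littermates. Tsc1L-/- livers lacked Tsc1, an inhibitor of the growth kinase complex mTorc1. Cpt2L-/- livers lacked Cpt2, the mitochondrial enzyme that long-chain fatty acids need for oxidation, and livers labelled Tsc1Cpt2 L-/- (DKO) lacked both. These deletions were driven by Cre under the albumin promoter, so they apply chiefly to hepatocytes. Which other cells of the liver kept the alleles was not tested. PPAR-a KO mice lacked Ppara, the fatty acid sensing nuclear receptor, and Cpt2L-/- Ppara KO mice lacked Ppara and hepatic Cpt2. The source of the Ppara allele was not given in the sources used here. The comparisons asked how the fasted liver without fatty acid oxidation differs from control, how mTorc1 activation alters that state, and how the effect of Cpt2 loss depends on Ppara. The labels name the libraries as replicates but do not say that each came from another mouse, so the p-values measure the spread between these samples.

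Long-chain fatty acids reach the hepatocyte as albumin-bound acids from adipose tissue or as triglyceride in lipoproteins. CD36 and the SLC27 proteins (fatty acid transport proteins, which also activate fatty acids to acyl-CoA) act at membranes, and the small fatty acid binding proteins (FABP) carry fatty acids through the cytosol. Fabp1 is the liver FABP, Fabp2 the intestinal, Fabp3 the heart and muscle, Fabp4 the adipocyte and Fabp5 the epidermal form. Lipoprotein lipase (Lpl) releases fatty acids from circulating triglyceride, and the VLDL receptor (Vldlr) binds and takes up triglyceride-rich particles. In the fasting liver many genes of fatty acid use are transcribed by Ppara, which binds DNA with its partner RXR at a direct repeat of a hexamer with a 1-base gap.

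Stretches before a RefSeq start of Fabp1 and of Cd36 are shown because, of the members with a promoter in the table used, these hold the closest matches to that repeat and both genes changed with Ppara loss. RefSeq promoter windows (GRCm38.p6, 250 bases before to 50 bases after the start) matched 7 of the 10 genes by symbol with 10 windows. Fabp4, Fabp5 and Lpl were not matched. The motif searched was AGGTCANAGGTCA on both strands, with 12 letters compared. The lines give 100 bases of each window 5′ to 3′ on the strand of the gene, with the best match in capitals. The Fabp1 stretch is chr6:71199727-71199826 on the plus strand, and the Cd36 stretch is chr5:17835917-17836016 on the minus strand. The Cd36 stretch lies before an internal start, inside the gene as annotated for the counts (chr5:17781690-17888959). No window at the annotated 5′ end of Cd36 was searched.
Fabp1: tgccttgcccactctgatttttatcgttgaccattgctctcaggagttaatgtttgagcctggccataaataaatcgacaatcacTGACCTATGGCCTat
Cd36: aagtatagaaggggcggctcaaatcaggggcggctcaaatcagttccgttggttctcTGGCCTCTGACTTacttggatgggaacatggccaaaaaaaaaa
The Fabp1 match differs from the reverse strand of the motif by 1 letter and lies 67 to 55 bases before the RefSeq start, and 0.554% of all 32851 promoter windows hold a match this close or closer. The Cd36 match differs by 2 letters and lies 63 to 51 bases before the start, a closeness reached in 3.86% of all windows. The best matches of Slc27a2 and Fabp2 differ by 3 letters, which 24.6% of windows reach, and those of Fabp3, Slc27a1 and Vldlr by 4 or more. The exact hexamer AGGTCA, on either strand, occurs in the windows of Fabp1, Cd36 and Slc27a2 and in 16.3% of all windows. A match is a description of letters and shows no binding.

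Total counts were 14470968 to 20371204 per library. Tsc1 averaged 38.4 CPM (the usual counts-per-million scale, here with TMM-scaled library sizes) in control, 24.5 CPM in Tsc1L-/- and 16.4 CPM in DKO livers. Cpt2 transcripts stayed between 79.9 and 105 CPM in Cpt2L-/- against 88.2 to 104 CPM in control livers, so a count over the whole gene did not check this deletion. Ppara was 216 to 277 CPM in control, 13.2 to 44.6 CPM in PPAR-a KO and 26.2 to 45.7 CPM in replicates 2, 3 and 4 of Cpt2L-/- Ppara KO livers, but 89.9 CPM in the library labelled replicate 1 of that group, above the rest of its group and below every control library. In the same library Cpt2 was 123 CPM against 31.4 to 39.1 CPM in the other 3, and Tsc1 was 23.8 CPM against 42.4 to 50.05 CPM. Replicate 1 of PPAR-a KO stood apart too, with Cpt2 at 94.8 CPM against 39.8 to 51.4 CPM. Both libraries are called by their labels below, and whether they are what their labels say was not tested. Results of the members that rest on them are given with and without them. Cd1d2, a gene singled out after its values were seen, was 10.96 to 61.6 CPM in control, Tsc1L-/- and DKO livers but 0.0695 to 0.868 CPM in the other 3 groups. The comparisons of Cpt2L-/- with control, DKO with Cpt2L-/- and PPAR-a KO with control cross this divide. Both interaction terms are unbalanced across it too, since Cpt2L-/- alone is low among the groups of Tsc1 and Cpt2 loss and control alone is high among those of Cpt2 and Ppara loss. No source used here says what the divide marks, and it cannot be told apart from genotype in these comparisons and interactions, although the labels give C57BL/6 for all groups. The summed level of 8 hepatocyte markers was 77273 to 97071 CPM in control, 44957 to 74506 CPM in Tsc1L-/-, 43666 to 69151 CPM in Cpt2L-/-, 35079 to 42792 CPM in DKO, 61785 to 93580 CPM in PPAR-a KO and 48748 to 68620 CPM in Cpt2L-/- Ppara KO livers. Stellate cell markers (8 of 8 found) summed to 261 to 362 CPM in control and, below every control library, to 170.1 to 249 CPM in Tsc1L-/-, 158 to 198.4 CPM in DKO and 172 to 231 CPM in Cpt2L-/- Ppara KO livers, with 187 to 275.5 CPM in Cpt2L-/- and 269.6 to 291 CPM in PPAR-a KO livers. Cholangiocyte markers (6 of 6) summed to 20.6 to 33.9 CPM in control, 31.6 to 35.7 CPM in Tsc1L-/-, 14.8 to 26.9 CPM in Cpt2L-/-, 20.4 to 26.6 CPM in DKO, 25.1 to 48.4 CPM in PPAR-a KO and 13.1 to 20.8 CPM in Cpt2L-/- Ppara KO livers. The part of these cells in the results was not tested.

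In control livers the level per transcript length (deposited FPKM) spanned several orders of magnitude. Fabp1 was highest at 4139 ± 1384 FPKM (SD, n = 4), followed by the very long-chain acyl-CoA synthetase and transporter Slc27a2 at 634.5 ± 37.8 FPKM and Fabp2 at 140.5 ± 36.1 FPKM. Cd36 (20.99 ± 13.6 FPKM) and Fabp4 (13.5 ± 4.15 FPKM) overlapped in range, as did Lpl (3.25 ± 0.647 FPKM) and Vldlr (1.94 ± 1.38 FPKM). Slc27a1 stood at 7.10 ± 1.53 FPKM and Fabp5 at 1.74 ± 0.515 FPKM. Fabp3 was nearly absent, with counts of 0, 0, 0 and 1.

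The fasted liver without Cpt2 held more mRNA for Cd36, Slc27a1, Fabp3 and Fabp4 than control, while the abundant forms Fabp1, Fabp2 and Slc27a2 did not pass the test. DKO livers held still more Fabp3 mRNA than Cpt2L-/- livers and less of Slc27a1. PPAR-a KO livers held less mRNA for Fabp1, Fabp2, Vldlr, Slc27a1 and Cd36 than control livers. Cpt2L-/- Ppara KO livers held less for Slc27a1, Cd36, Slc27a2 and Fabp3 than Cpt2L-/- livers. Fabp1 was lower there too once the library labelled Cpt2L-/- Ppara KO replicate 1 was left out. That Fabp3 call with all libraries, and both Cd36 calls against control, were lost under several alternatives. Of these comparisons, only that of Cpt2L-/- Ppara KO with Cpt2L-/- livers does not cross the Cd1d2 divide. Because these are bulk samples, fewer cells of a type and less RNA per cell cannot be told apart.

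**Figure D1:**
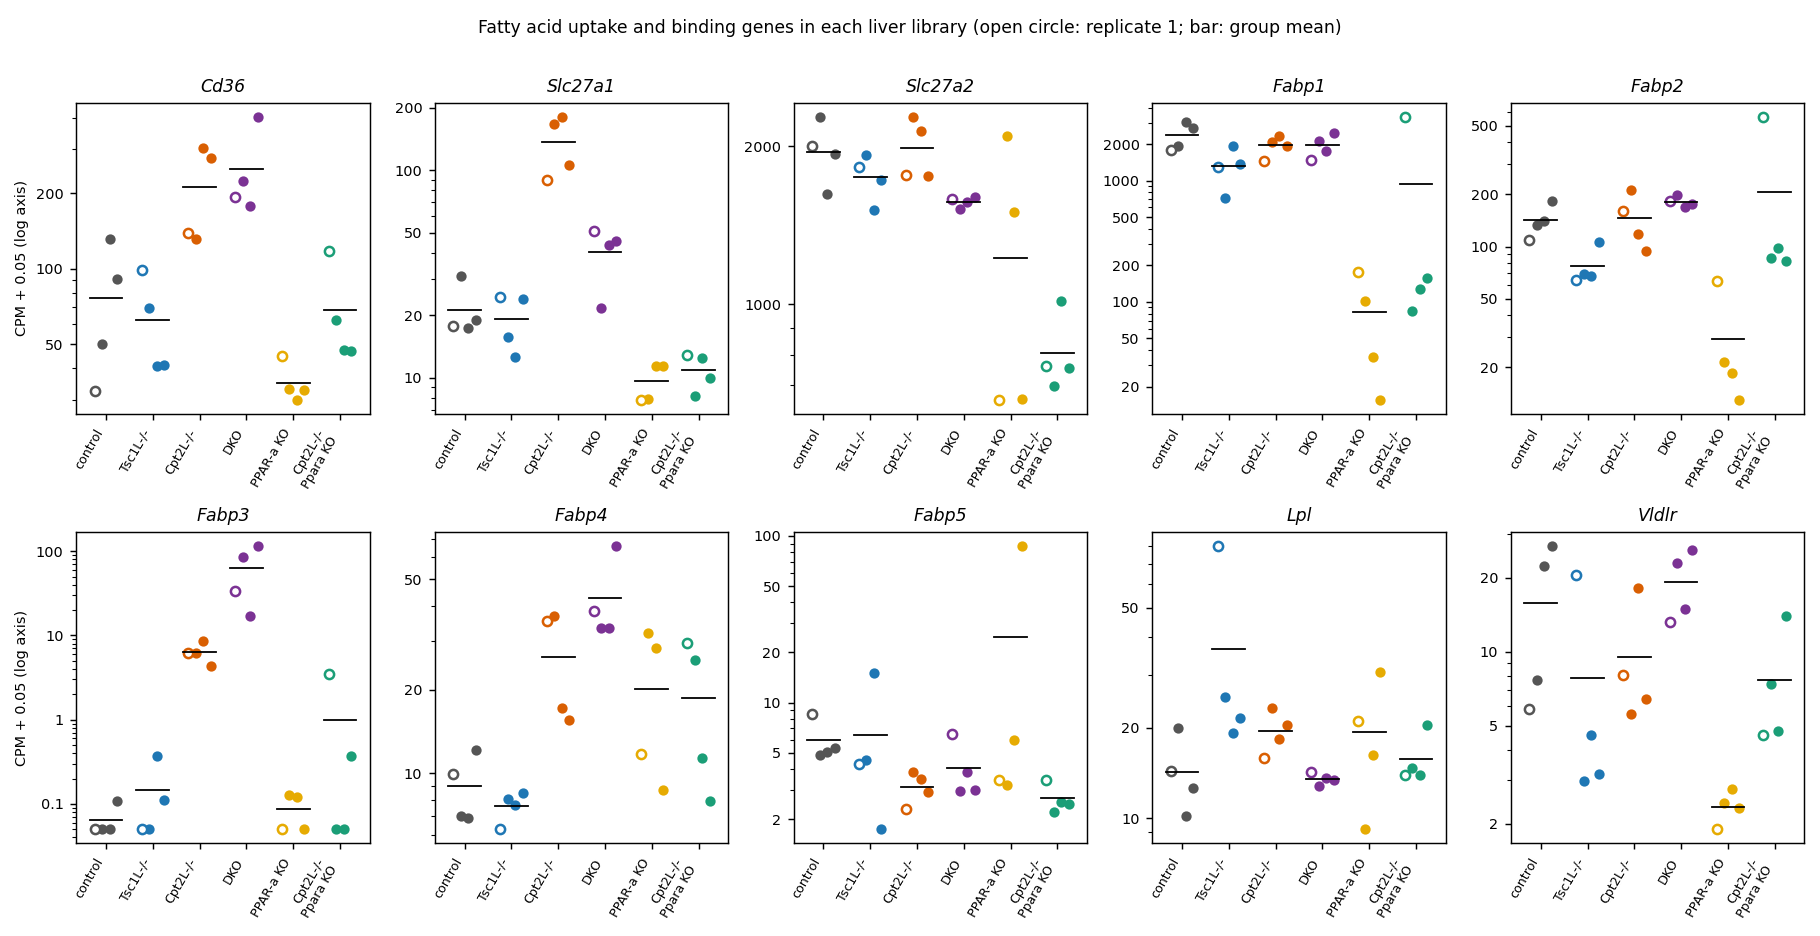
Each of the 10 genes in all 24 libraries. The x axis gives the group and the y axis CPM plus 0.05 on a log scale, points are libraries, open circles are replicate 1 and black bars are group means. Slc27a1 is highest in Cpt2L-/- livers (90.1 to 181 CPM), Fabp3 in DKO livers (17.0 to 115 CPM), and Fabp1 is lowest in PPAR-a KO livers (15.4 to 177 CPM).

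A gene was called where edgeR gave a Benjamini-Hochberg adjusted p under 0.05 over all genes tested, and all 10 members passed the filter on low counts. In Cpt2L-/- against control, 4 members were higher and 0 lower, against backgrounds of 16.2% and 14.9% of the 13641 genes tested, and 4 members were under an unadjusted p of 0.05. In Tsc1L-/- against control, 1 member (Lpl) was higher and 1 (Fabp2) lower, against 4.16% and 2.48% of all genes. In DKO against Cpt2L-/-, 1 member (Fabp3) was higher and 1 (Slc27a1) lower, against 10.9% and 7.4%. In DKO against Tsc1L-/-, 5 were higher and 1 (Lpl) lower, against 16.9% and 15.2%. For the interaction of Tsc1 and Cpt2 loss, edgeR called 0 members in either direction, against 1.09% and 1.28% of all genes. There 5 members were under an unadjusted p of 0.05 and DESeq2 called 3. The shares of all genes given here are for the edgeR call and do not apply to those criteria. The median change of the members was 0.25 on the log2 scale in Cpt2L-/- against control, where the median of all genes was -0.02, and 1.17 in DKO against Tsc1L-/-, where that of all genes was 0.00.

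In the groups without Ppara, 13615 genes were tested. The shares of all genes below are for the edgeR call, and not for an unadjusted p or DESeq2. In PPAR-a KO against control, 0 members were higher and 5 lower, against backgrounds of 15.9% and 13.2%, with 8 members under an unadjusted p of 0.05 and 6 called by DESeq2. With replicate 1 of both Ppara groups left aside, 2 (Fabp4 and Fabp5) were higher and 5 lower, against 20.3% and 17.5%. In Cpt2L-/- Ppara KO against Cpt2L-/-, 0 were higher and 4 lower, against 10.3% and 8.01%, with 4 under an unadjusted p of 0.05 and 3 called by DESeq2. In Cpt2L-/- Ppara KO against PPAR-a KO, 4 were higher and 1 (Fabp5) lower, against 12.9% and 12.6%. For the interaction of Cpt2 and Ppara loss, 2 were higher (Fabp2 and Vldlr) and 1 (Slc27a1) lower, against 12% in either direction. The member median was -0.90 in PPAR-a KO against control, beside 0.01 for all genes, and -0.78 in Cpt2L-/- Ppara KO against Cpt2L-/-, beside 0.03. Comparisons that share a group share its libraries and are not independent of each other. Without replicate 1 of Cpt2L-/- Ppara KO, 0 members were higher and 5 lower against Cpt2L-/-, beside 6.74% and 6.59% of all genes in that fit. Against PPAR-a KO 2 were then higher and 0 lower, beside 5.74% and 6.69%, and in the interaction 1 was higher and 3 lower, beside 10.6% and 11.6%.

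**Figure D2:**
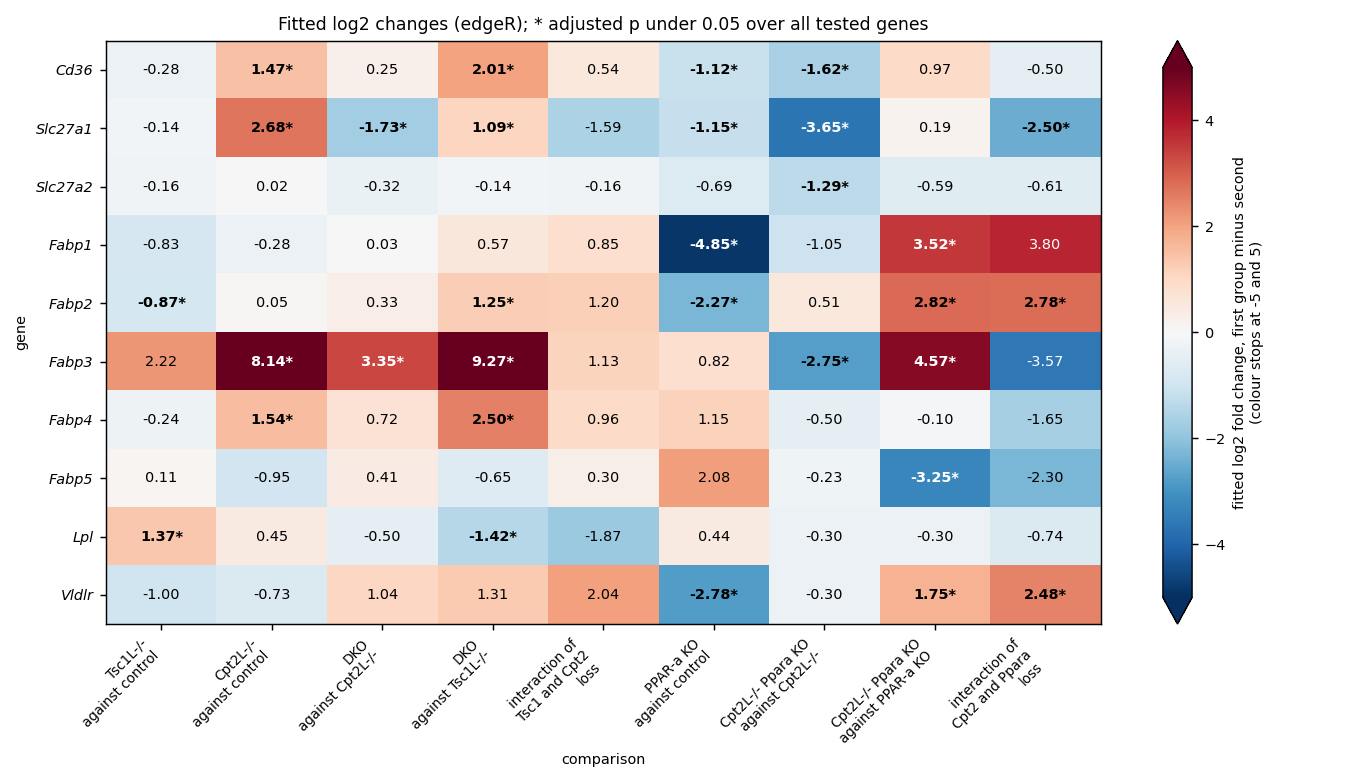
Fitted log2 changes of the 10 genes (rows) in the 9 comparisons (columns), with the value in each cell, red for higher and blue for lower in the group named first, and an asterisk at an adjusted p under 0.05 (edgeR). Slc27a1 runs from 2.68 in Cpt2L-/- against control to -3.645 in Cpt2L-/- Ppara KO against Cpt2L-/-, and the Fabp3 values against groups near 0 counts depend on the prior count of the fit.

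Cd36 is annotated as ENSMUSG00000002944 at chr5:17781690-17888959 on the minus strand (GRCm38). Cd36 encodes a membrane glycoprotein that binds long-chain fatty acids. Its level was 32.4, 50.2, 131 and 91.2 CPM in replicates 1 to 4 of control livers and 139, 131, 302 and 276 CPM in Cpt2L-/- livers. DKO livers had 193, 224, 178 and 403 CPM, and Tsc1L-/- livers had 98.3, 69.8, 40.7 and 41.4 CPM. Every Cpt2L-/- and DKO library lay above every Tsc1L-/- library, and the Cpt2L-/- and control ranges did not overlap, though control replicate 3 and Cpt2L-/- replicate 2 nearly met. The change in Cpt2L-/- against control was 1.47 ± 0.47 (log2 fold change ± SE, adjusted p = 0.0289). It was no longer called when control replicate 1 or 2 or Cpt2L-/- replicate 3 or 4 was left out (log2 change 1.25 to 1.90 over all libraries left out in turn, adjusted p 0.0112 to 0.0759), nor without the filter (0.0555) or in the fit of 2 groups (0.0621). DKO livers exceeded Tsc1L-/- livers by 2.01 ± 0.48 (adjusted p = 0.00565) and differed from Cpt2L-/- livers by 0.25 ± 0.46 (adjusted p = 0.741).

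Without Ppara, Cd36 stood at 44.6, 33.0, 29.9 and 32.8 CPM in PPAR-a KO and at 117, 62.2, 47.3 and 47.0 CPM in Cpt2L-/- Ppara KO livers. The PPAR-a KO range overlapped that of control through control replicate 1. The Cpt2L-/- Ppara KO libraries all lay below the lowest Cpt2L-/- library, and replicate 1, named above, was the highest of them. Cd36 fell by 1.62 ± 0.40 on the log2 scale in Cpt2L-/- Ppara KO against Cpt2L-/- livers (adjusted p = 0.0121), and the change was -2.02 without that replicate (adjusted p = 0.00499). In PPAR-a KO against control it fell by 1.12 ± 0.40 (adjusted p = 0.0435), a call that was lost without control replicate 3 (adjusted p = 0.186) or 4, or without PPAR-a KO replicate 2, 3 or 4, and also without the filter (adjusted p = 0.0911) and with the replicate number as a block (adjusted p = 0.0788). The interaction was -0.50 ± 0.56 (adjusted p = 0.538), so the size of the Ppara-dependent difference was not shown to differ between livers with and without Cpt2.

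Slc27a1 is annotated as ENSMUSG00000031808 at chr8:71568927-71586708 on the plus strand (GRCm38). Slc27a1 (fatty acid transport protein 1), a form best known from muscle and adipose tissue, followed another order. Control livers had 17.7, 30.7, 17.3 and 18.8 CPM, Tsc1L-/- livers 24.4, 15.6, 12.5 and 23.9 CPM, and Cpt2L-/- livers 90.1, 167, 181 and 105 CPM. In DKO livers it was 50.6, 21.7, 43.3 and 45.7 CPM. All Cpt2L-/- libraries lay above all libraries of the other 5 groups, and 3 of the 4 DKO libraries lay above every control library. The rise in Cpt2L-/- against control was 2.68 ± 0.32 (adjusted p = 2.53e-05) and stayed called under every alternative tried. DKO livers were lower than Cpt2L-/- livers by -1.73 ± 0.31 (adjusted p = 0.00189) and higher than Tsc1L-/- livers by 1.09 ± 0.31 (adjusted p = 0.0143), and both calls held under every alternative. The interaction of Tsc1 and Cpt2 loss was -1.59 ± 0.43 (adjusted p = 0.0673). It was called by DESeq2 (adjusted p = 0.00558) and, in edgeR, without control replicate 2 (adjusted p = 0.0482) or Tsc1L-/- replicate 3 (adjusted p = 0.0470).

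In livers without Ppara, Slc27a1 stayed low whether Cpt2 was present or not. PPAR-a KO livers had 7.75, 7.81, 11.3 and 11.3 CPM and Cpt2L-/- Ppara KO livers 12.8, 8.13, 12.3 and 9.91 CPM. Replicate 1 of Cpt2L-/- Ppara KO, which stood apart for other genes, lay near the rest of its group here. Slc27a1 fell by 1.15 ± 0.26 in PPAR-a KO against control (adjusted p = 0.00305) and fell by 3.645 ± 0.27 in Cpt2L-/- Ppara KO against Cpt2L-/- (adjusted p = 1.10e-06). The difference between Cpt2L-/- Ppara KO and PPAR-a KO was 0.19 ± 0.26 (adjusted p = 0.622). The interaction of Cpt2 and Ppara loss was -2.495 ± 0.36 (adjusted p = 0.000351), -2.59 without Cpt2L-/- Ppara KO replicate 1 and -2.68 with replicate 1 of both Ppara groups left aside, and it was called under every alternative.

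Slc27a2 is annotated as ENSMUSG00000027359 at chr2:126552407-126588243 on the plus strand (GRCm38). Slc27a2 (fatty acid transport protein 2), the abundant hepatic form, varied little among the groups with Ppara. It was 2000.0, 2272, 1619 and 1931 CPM in control, 1830.0, 1922, 1514 and 1724 CPM in Tsc1L-/-, 1765, 2278, 2137 and 1759 CPM in Cpt2L-/- and 1587, 1516, 1566 and 1600.0 CPM in DKO livers. DKO libraries lay closely together and below all Cpt2L-/- libraries, yet the difference of -0.32 ± 0.14 was not called by edgeR (adjusted p = 0.117), while DESeq2 called it (adjusted p = 0.0335). PPAR-a KO livers were spread widely, at 656, 2092, 1497 and 659.6 CPM, while Cpt2L-/- Ppara KO livers had 763, 698, 1014 and 754 CPM. The latter lay below every library of the 4 groups with Ppara. Slc27a2 fell by 1.29 ± 0.31 in Cpt2L-/- Ppara KO against Cpt2L-/- (adjusted p = 0.00996), and by 1.27 without replicate 1 (adjusted p = 0.0182). In PPAR-a KO against control the change was -0.69 ± 0.30 (adjusted p = 0.0980). It was called with the replicate block (-0.80, adjusted p = 0.0452) and without PPAR-a KO replicate 2 (-1.07, adjusted p = 0.0117), and it was -0.48 with replicate 1 of both Ppara groups left aside (adjusted p = 0.199). Cpt2L-/- Ppara KO differed from PPAR-a KO by -0.59 ± 0.30 (adjusted p = 0.158), a change called without PPAR-a KO replicate 1 (-0.81, adjusted p = 0.0469).

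Fabp1 is annotated as ENSMUSG00000054422 at chr6:71199827-71205023 on the plus strand (GRCm38). Fabp1, the main cytosolic fatty acid carrier of hepatocytes, was 1777, 1916, 3044 and 2720.0 CPM in control and 1458, 2087, 2333 and 1945 CPM in Cpt2L-/- livers. Tsc1L-/- livers had 1289, 722, 1939 and 1373 CPM and DKO livers 1479, 2133, 1764 and 2478 CPM. These 4 groups overlapped, with Tsc1L-/- replicate 2 the lowest. The change in Cpt2L-/- against control was -0.28 ± 0.26 (adjusted p = 0.442), and in DKO against Cpt2L-/- it was 0.03 ± 0.26 (adjusted p = 0.956). In Tsc1L-/- against control it was -0.83 ± 0.26 (adjusted p = 0.0633), and it was called by DESeq2 (adjusted p = 0.0178), with the replicate number as a block (adjusted p = 0.0405) and without Tsc1L-/- replicate 3 (-1.06, adjusted p = 0.0174). DKO against Tsc1L-/- livers gave 0.57 ± 0.26 (adjusted p = 0.0974), called without that replicate (adjusted p = 0.0232).

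Fabp1 was lower by more than an order of magnitude in PPAR-a KO than in control livers. PPAR-a KO livers had 177, 101, 34.8 and 15.4 CPM, and Cpt2L-/- Ppara KO livers had 3357, 83.5, 127 and 156 CPM. Replicate 1 of the latter held more Fabp1 than any of the other 23 libraries, and the other 3 lay within the PPAR-a KO range. Against control, Fabp1 fell by 4.85 ± 1.10 in PPAR-a KO (adjusted p = 0.00394), and by 4.50 to 5.58 with each library left out in turn. The change in Cpt2L-/- Ppara KO against Cpt2L-/- was -1.05 ± 0.94 with all libraries (adjusted p = 0.459) and -4.00 without replicate 1 (adjusted p = 0.000957). Against PPAR-a KO it was 3.52 ± 1.03 (adjusted p = 0.0231) and 0.57 without replicate 1 (adjusted p = 0.518), and it was also lost without PPAR-a KO replicate 2 or 3 (adjusted p 0.0506 and 0.0668), without the filter (0.0737), with the replicate block (0.0654) and in the fit of 2 groups (0.0957). The interaction of Cpt2 and Ppara loss was 3.80 ± 1.37 (adjusted p = 0.0535). It was called by DESeq2 (adjusted p = 0.0190), in the fit of 24 libraries (0.0281) and without PPAR-a KO replicate 1 or Cpt2L-/- Ppara KO replicate 2, 3 or 4 (0.0266 to 0.0364), and it was 0.85 without Cpt2L-/- Ppara KO replicate 1 (0.448). The mean in Cpt2L-/- Ppara KO was 931 ± 1618 CPM (SD, n = 4), and 122 ± 36.4 CPM over the other 3 libraries.

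**Figure D3:**
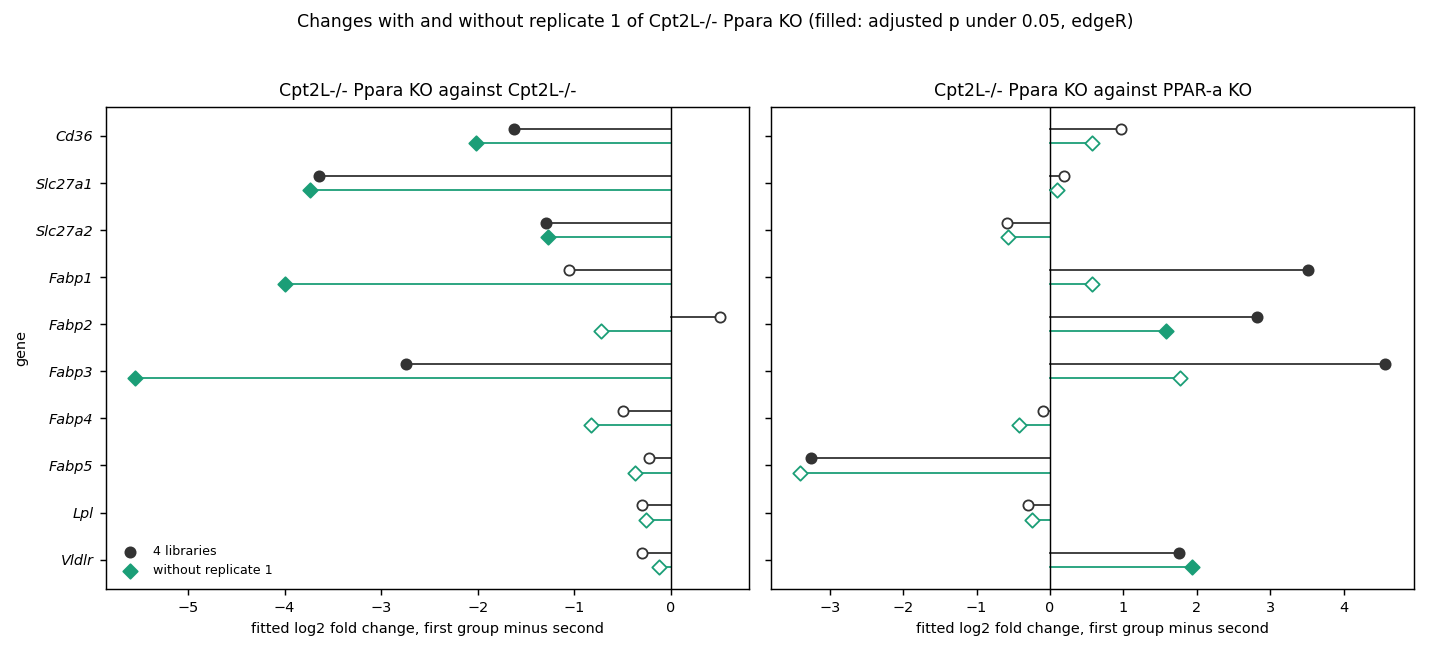
Fitted log2 changes (x axis) of the 10 genes (y axis) in Cpt2L-/- Ppara KO against Cpt2L-/- (left) and against PPAR-a KO (right), with all 4 libraries (circles) and without replicate 1 of Cpt2L-/- Ppara KO (diamonds), filled at an adjusted p under 0.05. Against Cpt2L-/-, Fabp1 moves from -1.05 to -4.00 and Fabp2 from 0.51 to -0.73, while Slc27a1 stays between -3.74 and -3.645.

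Fabp2 is annotated as ENSMUSG00000023057 at chr3:122895072-122899506 on the plus strand (GRCm38). Fabp2, the intestinal form, is also found in mouse liver RNA. It was 109, 133, 141 and 182 CPM in control, 64.4, 69.7, 67.8 and 107 CPM in Tsc1L-/-, 160.5, 212, 118 and 93.9 CPM in Cpt2L-/- and 183, 199, 168 and 176 CPM in DKO livers. Every Tsc1L-/- library lay below every control and DKO library. Fabp2 fell by 0.87 ± 0.22 in Tsc1L-/- against control (adjusted p = 0.0259), a call that was lost without control replicate 2, 3 or 4 or Tsc1L-/- replicate 1, 2 or 3 (adjusted p up to 0.0883) and in the fit of all 24 libraries (adjusted p = 0.505). DKO livers exceeded Tsc1L-/- livers by 1.25 ± 0.22 (adjusted p = 0.000447), though not in the fit of 24 libraries (adjusted p = 0.106). The interaction of Tsc1 and Cpt2 loss was 1.20 ± 0.31 (adjusted p = 0.0525). It was called by DESeq2 (adjusted p = 0.00979) and, in edgeR, without Tsc1L-/- replicate 4 (adjusted p = 0.0213) or Cpt2L-/- replicate 2 (adjusted p = 0.0142).

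PPAR-a KO livers had 63.5, 21.6, 18.6 and 12.9 CPM of Fabp2, with the highest value in the replicate 1 that stood apart. Cpt2L-/- Ppara KO livers had 562, 85.3, 97.4 and 82.1 CPM. All PPAR-a KO libraries lay below all libraries of the other 5 groups, with Tsc1L-/- replicate 1 next above. Fabp2 fell by 2.27 ± 0.62 in PPAR-a KO against control (adjusted p = 0.0118) and the change was -3.01 with replicate 1 of both Ppara groups left aside (adjusted p = 1.70e-06). It was higher in Cpt2L-/- Ppara KO than in PPAR-a KO by 2.82 ± 0.63 (adjusted p = 0.00784), and by 1.58 without Cpt2L-/- Ppara KO replicate 1 (adjusted p = 0.0288). The difference was 2.33 with replicate 1 of both Ppara groups left aside (adjusted p = 0.000249). It was not called in the fit of 2 groups (adjusted p = 0.0621). The interaction of Cpt2 and Ppara loss was 2.78 ± 0.85 (adjusted p = 0.0267). It was 2.28 with replicate 1 of both Ppara groups left aside (adjusted p = 0.0004285), and 1.54 without Cpt2L-/- Ppara KO replicate 1 alone (adjusted p = 0.0698). It was also just outside the threshold without control replicate 4, Cpt2L-/- replicate 3 or 4, or PPAR-a KO replicate 2 or 3 (2.61 to 2.69, adjusted p 0.0504 to 0.0587), and without the filter (adjusted p = 0.0874).

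Of the listed enterocyte markers, Sis was at 0 in 21 and Alpi at 0 in 22 of the 24 libraries. Their summed level was 5.58 to 14.7 CPM in control, 0.573 to 4.64 CPM in Tsc1L-/-, 8.11 to 19.6 CPM in Cpt2L-/- and 6.02 to 8.84 CPM in DKO livers. It was 4.38 to 13.9 CPM in PPAR-a KO and 11.3 to 19.4 CPM in Cpt2L-/- Ppara KO livers, and Treh alone reached 19.3 CPM. The marker sum, like Fabp2, was lower in every Tsc1L-/- library than in every control library, while in PPAR-a KO it overlapped control. The part of these cells in the Fabp2 values was not tested.

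Fabp3 is annotated as ENSMUSG00000028773 at chr4:130308595-130315463 on the plus strand (GRCm38). Fabp3, the heart and muscle form, separated the groups most widely. Counts were 0, 0, 0 and 1 in control and 0, 0, 5 and 1 in Tsc1L-/- livers. Cpt2L-/- livers had 6.12, 6.15, 8.46 and 4.23 CPM, and DKO livers 33.8, 84.8, 17.0 and 115 CPM. Every DKO library lay above every Cpt2L-/- library, and these lay above all control and Tsc1L-/- libraries. Summed over the groups, 432 counts in Cpt2L-/- against 1 in control gave a ratio of rates of 447, with an exact 95% interval of 79.9 to 17712 that covers counting error only. Both the rise in Cpt2L-/- against control (adjusted p = 0.000146) and that in DKO against Tsc1L-/- (adjusted p = 4.01e-06) were called by edgeR under every alternative.

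Fabp3 was 3.35 ± 0.52 higher on the log2 scale in DKO than in Cpt2L-/- livers (adjusted p = 0.000968), and 2.88 to 3.66 higher with each library left out in turn. The ratio of summed rates was 11.2 (95% interval 10.1 to 12.35, counting error only), and the DKO libraries themselves spanned 17.0 to 115 CPM. The interaction could not be read, since control and Tsc1L-/- livers lay near 0 (1.13 ± 6.76).

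Without Ppara, Fabp3 counts were 0, 1, 1 and 0 in PPAR-a KO and 49, 0, 0 and 7 in Cpt2L-/- Ppara KO livers. Of the 56 counts in the latter group, 49 came from replicate 1. Against Cpt2L-/- livers, Fabp3 fell by 2.75 ± 0.86 (adjusted p = 0.0362) with all libraries and the change was -5.55 without replicate 1 (adjusted p = 7.21e-05). The call with all libraries was lost when any other library was left out (adjusted p up to 0.0966) in DESeq2 (adjusted p = 0.216), without the filter (0.0963) and in the fit of 2 groups (0.0738). The rate in Cpt2L-/- was 7.42 times that in Cpt2L-/- Ppara KO (95% interval 5.60 to 9.98), and 46.3 times without replicate 1 (22.3 to 116). The call in Cpt2L-/- Ppara KO against PPAR-a KO (adjusted p = 0.0277) did not hold without replicate 1 (adjusted p = 0.319) and without any 1 of the PPAR-a KO libraries (adjusted p 0.0513 to 0.0651), without the filter (0.0694) and with the replicate block (0.0532). The ratio of rates, 56 counts against 2, was 28.3 (7.48 to 239), and without replicate 1 it was 4.54 (0.864 to 44.8), 7 counts against 2. The interaction of Cpt2 and Ppara loss was -3.57 ± 3.15 with all libraries (adjusted p = 0.431). It was -6.37 without Cpt2L-/- Ppara KO replicate 1 (adjusted p = 0.0459) and -6.85 with replicate 1 of both Ppara groups left aside (adjusted p = 0.0308). Control and PPAR-a KO counts lay near 0, so its size cannot be read.

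Among the 8 striated muscle markers, Myh6 was at 0 in all 24 libraries and Ckm at 0 in 21, while Tnnt2 was at 0 in none and reached 10.7 CPM and Acta1 reached 5.03 CPM. The summed level of these markers was 0.721 to 1.66 CPM in DKO and 0.334 to 1.38 CPM in Cpt2L-/- livers, and 0.845 to 10.8 CPM in control livers. It was 0.485 to 0.812 CPM in Tsc1L-/-, 0.631 to 1.32 CPM in PPAR-a KO and 0.709 to 9.82 CPM in Cpt2L-/- Ppara KO livers, and no DKO library exceeded the control range. The part of muscle RNA in the Fabp3 values was not tested.

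Fabp4 is annotated as ENSMUSG00000062515 at chr3:10204347-10208576 on the minus strand (GRCm38). Fabp4, the adipocyte form, which macrophages and endothelial cells also make, was 9.90, 6.96, 6.88 and 12.1 CPM in control and 6.24, 8.06, 7.64 and 8.44 CPM in Tsc1L-/- livers. Cpt2L-/- livers had 35.3, 37.0, 17.2 and 15.5 CPM and DKO livers 38.3, 33.2, 33.4 and 65.8 CPM. All Cpt2L-/- and DKO libraries lay above all control and Tsc1L-/- libraries. The rise was 1.54 ± 0.31 in Cpt2L-/- against control (adjusted p = 0.00138) and 2.503 ± 0.32 in DKO against Tsc1L-/- (adjusted p = 3.29e-05), called under every alternative. DKO livers differed from Cpt2L-/- livers by 0.72 ± 0.29 (adjusted p = 0.0998).

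PPAR-a KO livers had 11.7, 31.9, 28.1 and 8.68 CPM of Fabp4 and Cpt2L-/- Ppara KO livers 29.5, 25.6, 11.3 and 7.91 CPM. Both groups were spread over the ranges of control and Cpt2L-/- livers. The change in PPAR-a KO against control was 1.15 ± 0.46 (adjusted p = 0.0701). It was called by DESeq2 (adjusted p = 0.0401), in the fit of 24 libraries (0.0419), without PPAR-a KO replicate 1 (1.33, 0.0454) or 4 (1.397, 0.0281) and with replicate 1 of both Ppara groups left aside (0.0407). The change in Cpt2L-/- Ppara KO against PPAR-a KO was -0.10 ± 0.45 (adjusted p = 0.893). The interaction of Cpt2 and Ppara loss was -1.65 ± 0.64 (adjusted p = 0.0707). It was called by DESeq2 (adjusted p = 0.0374), in the fit of 24 libraries (0.0411), without PPAR-a KO replicate 1 or 4 or Cpt2L-/- Ppara KO replicate 1 (-1.97 to -1.83, 0.0326 to 0.0476) and with replicate 1 of both Ppara groups left aside (0.0308).

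Among the 8 adipocyte markers, Adipoq was at 0 in 17 and Lep at 0 in 23 of the 24 libraries, while Adrb3 was at 0 in none and reached 19.2 CPM and Cfd was at 0 in 3 and reached 12.3 CPM. Their summed level was 4.34 to 9.50 CPM in control, 5.39 to 20.4 CPM in Tsc1L-/- and 2.15 to 4.38 CPM in DKO livers. In Cpt2L-/- livers it was 0.882 to 21.9 CPM, with the highest value in replicate 2 and 1.60 CPM in replicate 1. It was 2.03 to 5.74 CPM in PPAR-a KO and 1.20 to 8.80 CPM in Cpt2L-/- Ppara KO livers. Summed macrophage markers (11 of 12 found) were 254 to 434 CPM in control, 248 to 427 CPM in Cpt2L-/- and 261 to 398 CPM in DKO livers, and 248 to 455 CPM over all libraries. Summed endothelial markers (8 of 8) were 329 to 375 CPM in control, 208.5 to 389 CPM in Cpt2L-/- and 191 to 319 CPM in DKO livers, and as low as 148 CPM in Cpt2L-/- Ppara KO livers. The part of adipocytes, macrophages and endothelial cells in the values of Fabp4, Lpl and Cd36 was not tested.

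Fabp5 is annotated as ENSMUSG00000027533 at chr3:10012548-10016607 on the plus strand (GRCm38). Fabp5, the epidermal form, was low, at 8.51, 4.82, 4.98 and 5.29 CPM in control, 4.24, 4.51, 14.97 and 1.69 CPM in Tsc1L-/-, 2.24, 3.80, 3.41 and 2.84 CPM in Cpt2L-/- and 6.44, 2.88, 3.77 and 2.94 CPM in DKO livers. PPAR-a KO livers had 3.38, 3.15, 5.89 and 87.0 CPM, and Cpt2L-/- Ppara KO livers 3.40, 2.15, 2.48 and 2.42 CPM. PPAR-a KO replicate 4 lay far above every other library. Cpt2L-/- libraries lay below all control libraries, a difference of -0.95 ± 0.49 that was not called (adjusted p = 0.155) save in the fit of 2 groups (adjusted p = 0.0110). Against PPAR-a KO, Cpt2L-/- Ppara KO livers were lower, and Fabp5 fell by 3.25 ± 0.86 (adjusted p = 0.0149), and by 0.67 without PPAR-a KO replicate 4 (adjusted p = 0.117), so that call rests on 1 library. It was also lost without Cpt2L-/- Ppara KO replicate 1 (-3.40, adjusted p = 0.0511), with the replicate block (adjusted p = 0.0743) and in the fit of 2 groups (adjusted p = 0.0805). The change in PPAR-a KO against control was 2.08 ± 0.80 (adjusted p = 0.0628). It was called without PPAR-a KO replicate 1, 2 or 3 (2.40 to 2.44, adjusted p 0.0182 to 0.0455) and with replicate 1 of both Ppara groups left aside (adjusted p = 0.0287), and its sign turned without PPAR-a KO replicate 4 (-0.52). Processed copies of Fabp5 exist in the mouse genome, and how reads shared with them were counted was not given in the sources used here.

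Taken by length, Fabp1 made up 95.8 to 97.2% of the summed FPKM of the 5 Fabp genes in control livers. It was 92.0 to 96.5% in Cpt2L-/- and 90.1 to 92.8% in DKO livers, where Fabp3 held 0.5996 to 2.85% and Fabp4 1.24 to 2.11%. The ranges of Fabp1 in control and DKO livers did not overlap. In PPAR-a KO livers the sum itself was 79.7 to 441 FPKM against 3075 to 5908 FPKM in control, and Fabp1 held only 34.2 to 78.9% of it. Fabp1 in Cpt2L-/- Ppara KO livers held 90.5% in replicate 1, with a sum of 6540 FPKM, and 53.9 to 74.1% in the other 3, with sums of 259 to 432 FPKM.

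**Figure D4:**
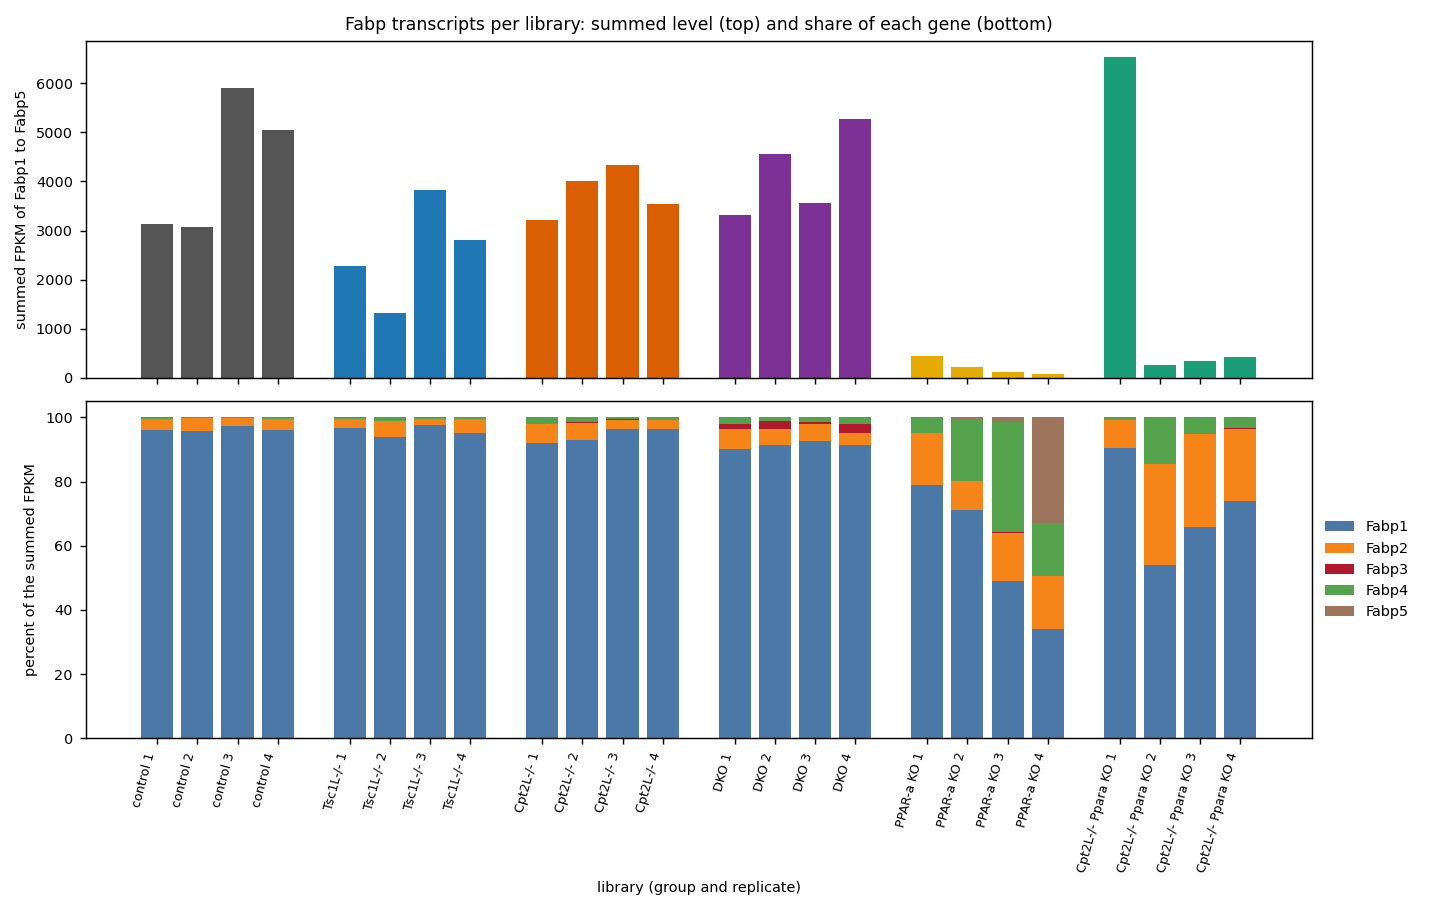
Summed FPKM of Fabp1 to Fabp5 in each of the 24 libraries (top) and the percent of that sum held by each gene (bottom). The sum is 79.7 to 441 FPKM in PPAR-a KO and 6540 FPKM in replicate 1 of Cpt2L-/- Ppara KO livers, and Fabp3 forms its widest bands in DKO livers (0.5996 to 2.85%).

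Lpl is annotated as ENSMUSG00000015568 at chr8:68880491-68907448 on the plus strand (GRCm38). Lpl, whose product is bound to capillary walls in muscle and fat and is low in adult liver, was 14.4, 19.9, 10.2 and 12.6 CPM in control and 80.1, 25.3, 19.1 and 21.6 CPM in Tsc1L-/- livers. Cpt2L-/- livers had 15.8, 23.2, 18.3 and 20.4 CPM and DKO livers 14.2, 12.8, 13.6 and 13.4 CPM. Tsc1L-/- replicate 1 lay far above every other library, and the other 3 Tsc1L-/- libraries still lay above all DKO libraries. The rise in Tsc1L-/- against control was 1.37 ± 0.38 (adjusted p = 0.0459), and 0.64 without replicate 1 (adjusted p = 0.0515). It was also lost without any 1 of the control libraries (adjusted p up to 0.1195), without the filter (0.0971), with the replicate block (0.0655) and in the fit of 2 groups (0.1955). DKO livers were lower than Tsc1L-/- livers by -1.42 ± 0.38 (adjusted p = 0.0106), and by -0.69 without Tsc1L-/- replicate 1, which kept the call, while the fit of 2 groups did not (adjusted p = 0.0538). The interaction of Tsc1 and Cpt2 loss was -1.87 ± 0.54 (adjusted p = 0.0817), called by DESeq2 (adjusted p = 0.00600) and, in edgeR, without Tsc1L-/- replicate 1 (-1.14, adjusted p = 0.0261) or 3 (adjusted p = 0.0449). Macrophage markers in that replicate summed to 382 CPM, within the 285 to 410 CPM of its group.

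Lpl was 20.99, 9.15, 16.2 and 30.6 CPM in PPAR-a KO and 13.9, 14.6, 13.8 and 20.3 CPM in Cpt2L-/- Ppara KO livers. These ranges overlapped those of control and Cpt2L-/- livers. The change was 0.44 ± 0.29 in PPAR-a KO against control (adjusted p = 0.273) and -0.30 ± 0.29 in Cpt2L-/- Ppara KO against Cpt2L-/- (adjusted p = 0.485).

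Vldlr is annotated as ENSMUSG00000024924 at chr19:27216484-27254231 on the plus strand (GRCm38). Vldlr was 5.79, 7.65, 22.4 and 26.8 CPM in control and 20.5, 2.94, 4.52 and 3.12 CPM in Tsc1L-/- livers. Cpt2L-/- livers had 7.99, 5.51, 18.2 and 6.35 CPM and DKO livers 13.2, 23.0, 14.8 and 25.9 CPM. Control libraries fell into a low and a high pair, and Tsc1L-/- replicate 1, high for Lpl, was high for Vldlr too. None of the 4 comparisons within these groups called it (log2 changes -1.005 ± 0.68 in Tsc1L-/- against control, -0.73 ± 0.67 in Cpt2L-/- against control, 1.04 ± 0.67 in DKO against Cpt2L-/- and 1.31 ± 0.68 in DKO against Tsc1L-/-, adjusted p 0.163 to 0.451). Without Tsc1L-/- replicate 1, DKO exceeded Tsc1L-/- livers by 2.46 (adjusted p = 0.00840), a call, and the change in Tsc1L-/- against control was -2.15 (adjusted p = 0.0601).

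PPAR-a KO livers had 1.85, 2.37, 2.70 and 2.26 CPM of Vldlr and Cpt2L-/- Ppara KO livers 4.53, 7.37, 4.73 and 13.9 CPM. Every PPAR-a KO library lay below every library of the other 5 groups. Vldlr fell by 2.78 ± 0.52 in PPAR-a KO against control (adjusted p = 0.000911), under every alternative. It was higher in Cpt2L-/- Ppara KO than in PPAR-a KO by 1.75 ± 0.51 (adjusted p = 0.0219), a call that was lost without Cpt2L-/- Ppara KO replicate 4 (1.25, adjusted p = 0.0745) or with replicate 1 of both Ppara groups left aside (1.84, adjusted p = 0.0528), without the filter (adjusted p = 0.0538) and in the fit of 2 groups (adjusted p = 0.0532). The interaction of Cpt2 and Ppara loss was 2.48 ± 0.70 (adjusted p = 0.0174) and was called under every alternative.

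A list of 42 other genes of fatty acid handling, 40 of them in the table and 32 tested, gives the setting. In Cpt2L-/- against control, 5 of the 32 were higher and 7 lower, beside the 16.2% and 14.9% of all genes given above. Slc27a4, a further fatty acid transport protein, rose by 1.41 ± 0.16 (adjusted p = 7.34e-06), lysosomal acid lipase Lipa by 1.31 ± 0.17 (adjusted p = 1.59e-05) and the lysophospholipid transporter Mfsd2a by 0.95 ± 0.18 (adjusted p = 0.000755), while hepatic lipase Lipc fell by 0.93 ± 0.17 (adjusted p = 0.000468). In DKO against Cpt2L-/-, 5 were higher, among them Apoc2, the cofactor of lipoprotein lipase (0.76 ± 0.24, adjusted p = 0.0350), and 2 lower, Cav1 and Slc27a4 (-0.67 ± 0.16, adjusted p = 0.00858), beside 10.9% and 7.4% of all genes. In Tsc1L-/- against control, 0 were higher and 4 lower, beside 4.16% and 2.48%, among them endothelial lipase Lipg (-2.39 ± 0.59, adjusted p = 0.0291), the acyl-CoA synthetase Acsl1 (-1.02 ± 0.25, adjusted p = 0.0183) and the lipase inhibitor Angptl4 (-0.64 ± 0.16, adjusted p = 0.0244). In DKO against Tsc1L-/-, 9 were higher and 7 lower, beside 16.9% and 15.2%. The interaction of Tsc1 and Cpt2 loss called 0 in edgeR, beside 1.09% and 1.28%, with 4 under an unadjusted p of 0.05 and 1 called by DESeq2. Those shares are for the edgeR call only.

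In PPAR-a KO against control, 1 of the 32 (the acyl-CoA synthetase Acsl4) was higher and 11 lower, beside 15.9% and 13.2% of all genes. The log2 changes were -4.45 ± 0.52 for Lipg (adjusted p = 2.04e-05), -3.64 ± 0.68 for Mfsd2a (adjusted p = 0.00105) and -1.69 ± 0.47 for the acyl-CoA binding protein Dbi (adjusted p = 0.0127). In Cpt2L-/- Ppara KO against Cpt2L-/-, 4 were higher, among them brain-type Fabp7 (1.25 ± 0.29, adjusted p = 0.00939), and 7 lower, with Acsl1 at -2.73 ± 0.29 (adjusted p = 1.70e-05), beside 10.3% and 8.01%. Between the 2 groups without Ppara, 8 were higher and 6 lower in Cpt2L-/- Ppara KO, beside 12.9% and 12.6%, and the interaction of Cpt2 and Ppara loss called 4 higher and 2 lower, beside 12% in either direction. Without replicate 1 of Cpt2L-/- Ppara KO these counts were 2 higher and 3 lower between the groups without Ppara (5.74% and 6.69% of all genes), 4 and 4 in the interaction (10.6% and 11.6%) and 2 and 8 against Cpt2L-/- (6.74% and 6.59%). The calls then lost included Dbi, Mfsd2a, Apoc2 and Lrp1 against PPAR-a KO. The list median in PPAR-a KO against control was -0.49, beside 0.01 for all genes.

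Among 13987 genes, those whose log2 CPM was most like a member over the 24 libraries were named by Pearson's r, as a description over libraries that share groups. Fabp3 was most like Ucp3 (mitochondrial uncoupling protein 3, r = 0.96) and Aqp7 (a glycerol channel, r = 0.96). Fabp1 was most like Hadh, an enzyme of mitochondrial fatty acid oxidation (r = 0.96), and Fabp2 was most like Chchd6 (r = 0.94). Slc27a1 was most like Bcl2l13 (r = 0.94), followed by 5031439G07Rik (r = 0.94). Cd36 was most like Nceh1 (r = 0.91) followed by Tmeff1 and Lipa (r = 0.89), Slc27a2 like Gna12 (r = 0.89) and Fabp4 like Pdk4, the kinase that restrains pyruvate dehydrogenase (r = 0.87). Lpl (Itpripl1, r = 0.72), Vldlr (Casc4, r = 0.74) and Fabp5 (Col17a1, r = 0.80) had weaker likenesses. For Fabp5, r with Col17a1 was 0.57 and with Krt10 0.20 (from 0.77) over the 23 libraries without PPAR-a KO replicate 4, and for Lpl, r with Itpripl1 was 0.55 without Tsc1L-/- replicate 1.

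Between members, r over the 24 libraries was 0.83 for Cd36 and Fabp3, 0.81 for Fabp1 and Fabp2, 0.76 for Fabp3 and Fabp4 and 0.73 for Cd36 and Slc27a1. After each library was centred on its group mean, r was 0.86 for Fabp1 and Fabp2, 0.31 for Cd36 and Fabp3, 0.37 for Fabp3 and Fabp4 and 0.0713 for Cd36 and Slc27a1. Over the 23 libraries without replicate 1 of Cpt2L-/- Ppara KO, the highest for both Fabp1 and Fabp2, this centred r was 0.66, 0.0285, 0.16 and 0.0063 for the same pairs in turn.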

How the data were processed

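Members and gene lists were chosen with earlier results of these data known. Per the labels, TruSeq stranded mRNA libraries were sequenced with single 75-base reads. The authors deposited read counts per gene (35275 genes, whole numbers, GRCm38 coordinates) with each gene length in bases, and FPKM values made from them. FPKM recomputed from counts, gene length and total count agreed within a relative difference of 9.11e-07. The submitters' processing notes list STAR 2.5, HTSeq 0.6.1, TopHat, Bowtie 0.12.2, STAR-Fusion, DESeq2 and edgeR and the builds mm8 and mm9 without roles. The strand setting of the counting and the model the authors used were not given in the sources used here.

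Counts were tested with edgeR 4.0.16 in R 4.3.3 (robust quasi-likelihood, filterByExpr with minimum count 10 and total 15, TMM, Benjamini-Hochberg over all tested genes) in 2 fits of 16 libraries, the former of control, Tsc1L-/-, Cpt2L-/- and DKO, the latter of control, Cpt2L-/-, PPAR-a KO and Cpt2L-/- Ppara KO. CPM values used TMM factors over 24 libraries, and correlations used a prior count of 2. The fits were tested on simulated counts for some of the comparisons, with a common spread for all genes and no outlying library. That setting differs from these data, in which some libraries stood apart. Intervals of rate ratios are exact and cover counting error only. Alternatives were DESeq2 1.42.0, other size factors, no filter, fits of 2 groups and of 24 libraries, a replicate block and each library left out. All 10 members were named. Of the list of other genes, at most 3 called genes per direction with a mean of at least 1 CPM could be named, and of the likenesses, genes among the 3 with the highest r per member, not all of which are reported here. Marker lists of cholangiocytes, stellate cells and hepatocytes were summed too. No 2 libraries of a group were copies (at least 22.2 chi-square per gene over 36 pairs).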

Additional observations from a re-analysis of the deposited data

Results flagged for a closer look

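In 11 of 58 groups of 4 libraries with values for a member, the highest library lay far from the other 3, with a gap to the next beyond Dixon's critical value at the 95% level. Chance alone marks about 1 in 20 groups where values are normally spread, which was not tested here. In Cpt2L-/- Ppara KO, replicate 1 was that library for Fabp1 (3357 CPM), Fabp2 (561.5 CPM) and Fabp3 (3.47 CPM), and replicate 4 for Lpl (20.3 CPM). In Tsc1L-/-, replicate 1 was it for Lpl (80.1 CPM) and Vldlr (20.5 CPM), and replicate 4 for Fabp2 (106.8 CPM). PPAR-a KO replicate 4 was it for Fabp5 (87.0 CPM), DKO replicate 4 for Fabp4 (65.8 CPM), control replicate 1 for Fabp5 (8.51 CPM) and control replicate 2 for Slc27a1 (30.7 CPM). Fabp1, Fabp2 and Fabp3 thus shared a high library in Cpt2L-/- Ppara KO, the same in which Ppara was 89.9 CPM and Cpt2 123 CPM.

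The effect of Ppara loss differed between livers with and without Cpt2, by the interaction term in edgeR, for 3 members. The interaction was -2.495 for Slc27a1 (adjusted p = 0.000351), 2.78 for Fabp2 (adjusted p = 0.0267) and 2.48 for Vldlr (adjusted p = 0.0174). The change with Ppara loss was -3.645 without Cpt2 and -1.15 with it for Slc27a1, 0.51 (not called) and -2.27 for Fabp2, and -0.30 (not called) and -2.78 for Vldlr. Control is the only group of this term on the high side of the Cd1d2 divide, which cannot be told apart from genotype here. The Fabp2 value fell to 1.54 without Cpt2L-/- Ppara KO replicate 1 (adjusted p = 0.0698), and was 2.28 with replicate 1 of both Ppara groups left aside (adjusted p = 0.0004285).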

How the results depend on the processing

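Of the 31 calls of a member, 18 held under every alternative and none turned in sign. RLE size factors kept 31 of 31, the fit of 24 libraries 29 of 31, DESeq2 29 of the 30 with an adjusted p (it gave none for Fabp5 in Cpt2L-/- Ppara KO against PPAR-a KO), the replicate block 26 of 31, no filter 23 of 31, fits of 2 groups 19 of 27, and fits without 1 library 228 of 272. With replicate 1 of both Ppara groups left aside, chosen after seeing the data, it was 14 of 17.

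In Tsc1L-/- against control the members called were 1 without the filter, 1 in the fit of 2 groups, 1 in that of 24 libraries and 0 to 2 with a library left out. Genes called there numbered 776, 466, 400 and 583 to 967 (no filter, 2 groups, 24 libraries, a library left out). The fit of 24 libraries called 2798 genes in Cpt2L-/- against control, 1065 in DKO against Cpt2L-/- and 65 for the interaction of Tsc1 and Cpt2 loss. DESeq2 called 745 genes and 3 members for that interaction. With a library left out, 1428 to 2498 genes were called in DKO against Cpt2L-/-, 150 to 403 genes and 0 to 2 members for that interaction, and 1149 to 2990 genes in Cpt2L-/- Ppara KO against Cpt2L-/-. In Cpt2L-/- Ppara KO against PPAR-a KO the members called were 2 without the filter, 2 with the replicate block, 0 in the fit of 2 groups, 2 with both first libraries aside and 2 to 5 with a library left out. Genes called there were 111 in the fit of 2 groups and 1728 to 4125 with a library left out. With both first libraries aside, 10.1% of all genes were higher and 11% lower. For the interaction of Cpt2 and Ppara loss the members called were 5 with DESeq2, 5 in the fit of 24 libraries, 5 with both first libraries aside and 2 to 5 with a library left out. With both first libraries aside, 13.2% of all genes were higher and 14.1% lower, and 2396 to 3767 genes were called with a library left out. The shares of all genes with DESeq2 and in the fit of 24 libraries are not given here. For these the cause was not tested.

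Uncalled log2 changes that turned in sign with a library left out were, in Tsc1L-/- against control, Fabp5 (-0.76 to 0.43, and -0.0926 with the replicate block), Cd36 (-0.58 to 0.12) and Slc27a1 (-0.28 to 0.10). In Cpt2L-/- against control they were Slc27a2 (-0.0496 to 0.13) and Fabp2 (-0.18 to 0.22), and in DKO against Cpt2L-/- Cd36 (-0.0724 to 0.45) and Fabp1 (-0.10 to 0.14). Fabp5 ran from -0.98 to 0.22 in DKO against Tsc1L-/- and from -0.52 to 2.44 in PPAR-a KO against control. For the interaction of Tsc1 and Cpt2 loss these were Fabp3 (-0.47 to 2.98) and Fabp5 (-0.0326 to 1.16), and for that of Cpt2 and Ppara loss Fabp5 (-2.67 to 0.27). Those in Cpt2L-/- Ppara KO were Fabp2 (-0.73 to 0.77, and -0.73 with both first libraries aside) and Vldlr (-0.81 to 0.22) against Cpt2L-/-, and Fabp4 (-0.42 to 0.20) and Lpl (-0.53 to 0.00045) against PPAR-a KO. The cause was not tested.

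Same-numbered libraries were not seen to deviate together (r -0.26 to 0.22, over 0.1 in 11 of 60 pairs). Whether the samples were paired by litter or cohort was not tested. The 4 libraries a group limit the precision, and Fabp3 rests on 0 to 5 counts per library in control, Tsc1L-/- and PPAR-a KO livers.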
